A study of Rattus norvegicus with 18 samples.

Results

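Transcript levels of rat oligodendrocytes (OLGs) after 2 days of differentiation without inhibitor were compared with those of oligodendrocyte progenitors (OLPs) at day 0. The comparison takes the 3 day 2 arrays whose labels carry no PD169316, the inhibitor of p38 kinases used elsewhere in the series, and the 3 day 0 arrays, 6 of 18 arrays in all. Both groups are primary brain cultures of newborn Sprague-Dawley rats with no genetic change. At day 0 the OLPs were held in serum-free medium with the mitogens PDGF-AA and bFGF, and the day 2 cultures had been without these mitogens for 2 days, with the DMSO vehicle that the study's methods give for controls (below, day 2 control). The labels do not say whether the 3 arrays of a group were hybridised from different cultures, and p-values therefore describe the spread among arrays alone, which may be technical. In a culture of mixed cells, fewer cells of a type and less RNA per cell cannot be told apart.

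OLPs are migratory, dividing cells of the brain that respond to PDGF-AA through its receptor. When the mitogens are withdrawn they leave the cell cycle, lose progenitor proteins, extend branched processes and make the proteins and lipids of myelin, the stacked membrane that insulates axons. Myelin is rich in cholesterol and in galactolipids, and its membrane is shaped by a small set of abundant proteins such as the myelin basic protein (MBP).

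Each array gave an intensity for 22523 probes. Levels are normalized log2 intensities, in which a difference of 1 is a doubling, and probes are compared with themselves only, since the brightness of a probe also depends on its sequence. On the 6 arrays between 9814 and 10683 probes were detected. The day 0 arrays correlated with each other at r of 0.9949 to 0.9968. Day 2 control 1 and 2 correlated at r = 0.9962, but day 2 control 3 stood apart, with r of 0.9867 and 0.9864 to these 2 arrays. It was closer to the arrays labelled day 2 PD169316 2 and 3 (r = 0.997 and 0.9959), while day 2 PD169316 1 was closer to day 2 control 1 and 2 (r = 0.9937 and 0.9939). Whether the label of day 2 control 3 is right cannot be told from these files, so each value over the 3 arrays may hold 1 array that was not a sample without inhibitor. The labels were kept. Where the call of a named gene or the count of a gene group changed without day 2 control 3, the value without it follows. The lineage markers *Olig1*, *Olig2*, *Sox10*, *Mbp* and *Cnp* were detected on all 6 arrays.

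Among 1165 probes whose level differed at least 2-fold between day 0 and the mean of day 2 control 1 and 2, day 2 control 3 lay at a median position of 0.647 on a scale where 0 is the day 0 mean and 1 is the mean of the other 2 arrays (quartiles 0.459 and 0.84). It was nearer to day 0 than both other arrays for 971 of these probes (83.3%). The probes were chosen by the levels of day 2 control 1 and 2, which in itself favours a position of the third array nearer to day 0. The position was not computed for day 2 control 1 or 2 in the same way, so the size of this effect is not known.

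**Figure D1:**
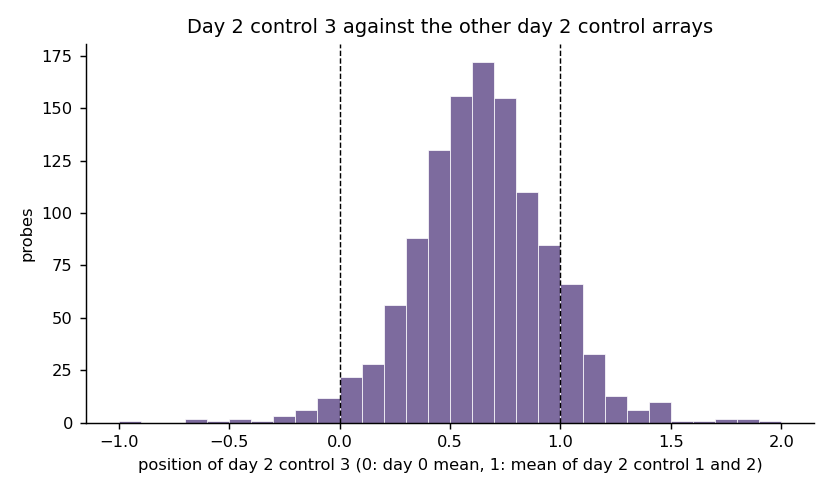
Histogram of the position of day 2 control 3 for the 1165 probes that differed at least 2-fold between day 0 and the mean of day 2 control 1 and 2. The x axis is 0 at the day 0 mean and 1 at the mean of the other 2 arrays, the y axis is the number of probes, values beyond the axis are placed in the end bins, and the median is 0.647.

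The first question was how many transcripts changed over the 2 days. Of 10574 probes detected in at least 1 group of the series, 4461 differed at an adjusted p under 0.05 in limma (42.2%), 2179 higher (20.6%) and 2282 lower (21.6%) at day 2. Of these, 452 were higher and 460 lower by at least 2-fold, and 66 were higher and 28 lower by at least 4-fold. The 3 arrays of day 2 control and the 3 of day 0 were free of overlap for 52.5% of these probes. Without day 2 control 3 the count was 4767 (45.1%), of which 4095 were the same probes moving the same way, 366 were lost and 672 gained, and no probe changed direction. With the deposited, unscaled intensities the split was 462 higher and 4235 lower and a median over all probes of -0.28, so the changes below are relative to the other probes of the same array. In terms of genes, with 1 probe for each of 7558 named genes, 41.8% differed, and 1629 rose (21.6%) and 1530 fell (20.2%), with a median log2 difference of 0.013.

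**Figure D2:**
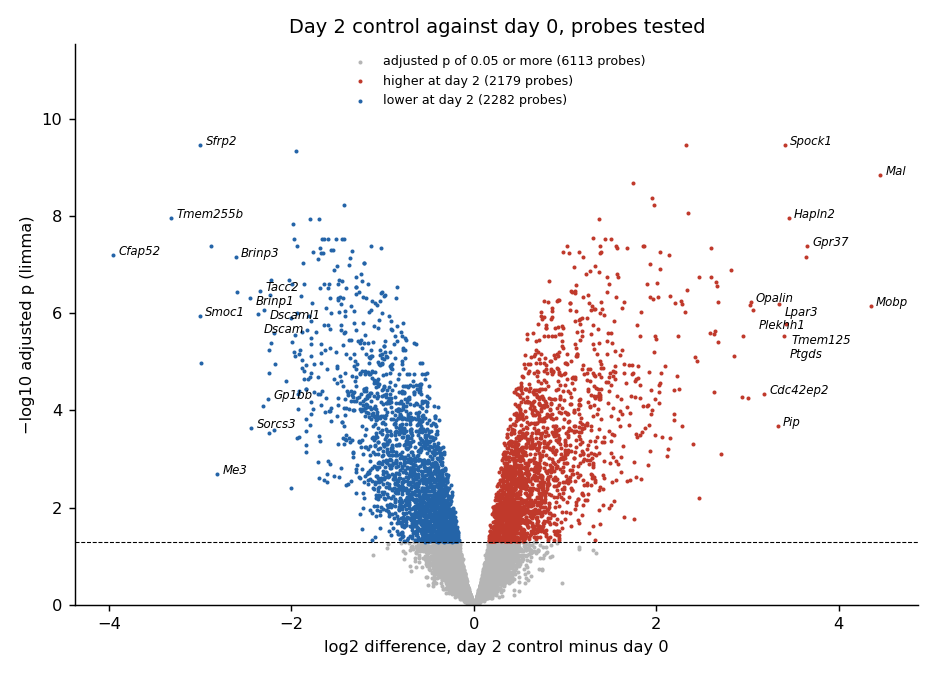
Log2 difference between day 2 control and day 0 (x axis) against -log10 of the limma adjusted p (y axis) for each of the 10574 probes tested. Red probes were higher and blue probes lower at day 2, grey probes did not pass, the dashed line is the threshold, and the names mark the 12 largest rises and the 12 largest falls.

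Myelin genes and genes of surface receptors were among the 12 largest rises. *Mal*, a proteolipid gene of compact myelin, was detected on 2 of 3 day 0 arrays and read 5.81, 5.44 and 5.64 there and 10.09, 10.00 and 10.17 on the day 2 control arrays, a rise of 4.46 (standard error 0.20, limma adjusted p = 1.4e-09). *Mobp*, which encodes a cytoplasmic protein of the myelin sheath, rose from 8.68, 8.82 and 8.80 to 13.67, 13.55 and 12.13. *Opalin*, a membrane glycoprotein gene of OLGs, was not well above background on any day 0 array and read 8.60, 8.34 and 7.73 at day 2, at least 6.44-fold higher (the level at day 0 was set to the lowest detected signal of each array). For these 3 genes every day 2 array lay above every day 0 array, and day 2 control 3 was the lowest of its group for *Mobp* and *Opalin* but not for *Mal*.

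Further genes among the 12 largest rises encode receptors, enzymes and regulators of cell shape. *Lpar3*, a receptor for lysophosphatidic acid, read 6.73, 6.60 and 6.74 at day 0 and 10.32, 10.47 and 9.32 at day 2. *Cdc42ep2*, which encodes an effector of the small GTPase Cdc42, rose by 3.18, and *Plekhh1*, a pleckstrin homology domain gene, by 3.07. The transmembrane protein gene *Tmem125* rose from 7.50, 7.94 and 7.29 to 11.42, 11.17 and 10.42. For *Lpar3*, *Cdc42ep2*, *Plekhh1* and *Tmem125*, day 2 control 3 was the lowest day 2 array and still lay above day 0.

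*Ptgds*, which encodes the secreted prostaglandin D synthase found in OLGs and in the meninges, read 9.63, 9.47 and 9.36 at day 0 and 12.45, 12.44 and 13.78 at day 2. Here day 2 control 3 was the highest array, so that the rise of 3.40 was 2.96 without it. *Pip*, which encodes a secretory glycoprotein, behaved in the opposite way, with 10.06, 10.18 and 7.70 at day 2 against 5.52, 6.16 and 6.25 at day 0, a rise of 3.33 with and 4.14 without day 2 control 3.

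Among the largest falls, *Cfap52*, named for the cilia and flagella where its protein is found, read 10.46, 10.53 and 10.43 at day 0 and 5.81, 6.46 and 7.29 at day 2, and fell by 3.95 (standard error 0.28, limma adjusted p = 6.4e-08). *Smoc1*, a secreted calcium-binding matrix protein gene, went from 9.01, 8.87 and 8.78 to 5.50, 5.55 and 6.59. *Tmem255b*, a transmembrane protein gene, was detected on every day 0 array at 7.60, 8.55 and 8.27 and on no day 2 array, at least 5.89-fold lower. The 3 genes did not overlap between the groups, and day 2 control 3 was the nearest to day 0 for *Cfap52* and *Smoc1*.

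Neural adhesion and sorting receptors were also among the 12 largest falls. *Dscam* and *Dscaml1*, which encode related adhesion molecules of the immunoglobulin superfamily, had differences of -2.37 and -2.30. *Sorcs3*, a sortilin-type receptor gene, had -2.44, and *Brinp3* and *Brinp1*, from a family named for its induction by BMP and retinoic acid, -2.61 and -2.45. *Me3*, the mitochondrial malic enzyme, showed how far a single array can matter: it read 9.65, 9.45 and 9.47 at day 0 and 5.61, 5.97 and 8.53 at day 2. Its difference of -2.82 became -3.73 without day 2 control 3.

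**Figure D3:**
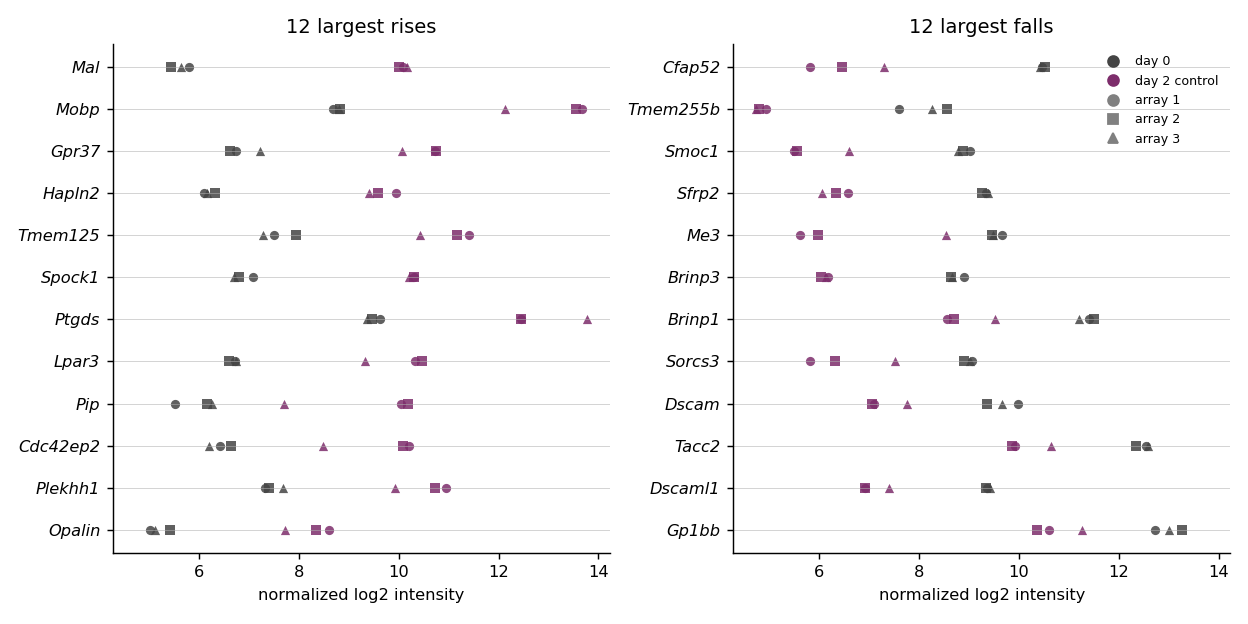
Normalized log2 intensity (x axis) of the 12 genes with the largest rise (left) and the 12 with the largest fall (right) on each of the 3 day 0 arrays (grey) and 3 day 2 control arrays (purple). Symbols give the array number, the groups do not overlap for any of the 24 genes by the way they were chosen, and the triangles of day 2 control 3 often lie between the other day 2 arrays and day 0.

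Genes were then followed in groups by function, and each group is described by the members that passed the detection filter. Detection in any of the 6 groups of the series was enough to pass. A member that passed only because it was bright at day 0 or only in day 2 control was favoured to differ, so the counts describe the members measured. Over all named genes 21.6% rose and 20.2% fell, and the counts stand beside these shares. Of 32 listed genes of compact and paranodal myelin, 23 were measured: 16 rose, 2 fell and 5 remained under the threshold, at a median log2 difference of 0.74 (1.00 without day 2 control 3). *Ermn*, a cytoskeletal protein gene of OLGs, rose by 1.73, *Tspan2*, a tetraspanin of the sheath, by 1.40, *Mog*, an outer glycoprotein of myelin, by 2.24, and *Cldn11*, the tight-junction protein of myelin, by 1.38. *Cnp*, an early enzyme of the OLG cytoplasm, was bright from the start: it read 14.82, 14.89 and 14.95 at day 0 and 15.37, 15.32 and 14.96 at day 2, a rise of 0.33 (limma adjusted p = 0.033), small beside that of *Mag* (2.20). This rise of *Cnp* did not pass in 4 of the fits with 1 array left out. The members that fell were *Septin8*, a septin gene of the myelin cytoskeleton, by 1.61, and *Omg*, a surface glycoprotein gene, by 0.33; *Omg* did not pass without day 2 control 1, day 2 control 2, day 0 array 1 or day 0 array 3.

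The promoters of the myelin genes were searched for CTGGCAC, letters of the sequence bound by the myelin regulator MYRF, on both strands. RefSeq windows of 300 bases, 250 before and 50 after the gene start, were matched for 18 of 23 measured members, and 4 of them held the letters (22.2%), against 4.61% of 27457 windows. The match is a description of the sequence and not a site shown to be bound. The windows of *Mal*, *Mag* and *Opalin* are shown because these genes rose and hold the letters, in capitals (rat build GRCr8, 5′ to 3′ along the gene).
Mal (chr3:135341374-135341673, minus strand): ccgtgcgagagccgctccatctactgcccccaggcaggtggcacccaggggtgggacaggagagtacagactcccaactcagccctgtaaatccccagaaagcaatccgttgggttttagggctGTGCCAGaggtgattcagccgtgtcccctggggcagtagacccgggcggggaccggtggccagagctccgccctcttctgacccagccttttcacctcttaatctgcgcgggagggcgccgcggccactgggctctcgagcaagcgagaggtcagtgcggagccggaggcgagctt
Mag (chr1:95290995-95291294, minus strand): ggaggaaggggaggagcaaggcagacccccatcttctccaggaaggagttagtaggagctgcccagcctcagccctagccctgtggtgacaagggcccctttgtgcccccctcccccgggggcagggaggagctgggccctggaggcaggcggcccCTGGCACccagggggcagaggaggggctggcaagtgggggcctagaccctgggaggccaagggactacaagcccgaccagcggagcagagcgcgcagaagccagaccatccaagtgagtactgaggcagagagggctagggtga
Opalin (chr1:249858141-249858440, minus strand): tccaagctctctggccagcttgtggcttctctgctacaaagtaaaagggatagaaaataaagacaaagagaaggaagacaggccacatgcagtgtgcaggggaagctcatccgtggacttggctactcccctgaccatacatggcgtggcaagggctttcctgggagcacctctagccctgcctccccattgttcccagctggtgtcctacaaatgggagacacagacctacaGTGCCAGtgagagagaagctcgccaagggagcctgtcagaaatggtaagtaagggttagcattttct

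Enzymes and secreted proteins of maturing OLGs moved less evenly. Of 24 measured, 13 rose, 4 fell and 7 did not pass (rises and falls, 14 and 4 without day 2 control 3). *Aspa*, which releases acetate from N-acetylaspartate, read 6.19, 6.22 and 6.01 at day 0 and 8.54, 8.59 and 7.92 at day 2, with no overlap. *Gamt*, the last enzyme of creatine synthesis, rose by 1.86, the small heat shock protein gene *Cryab* by 1.56 and the choline phosphodiesterase gene *Enpp6* by 1.54. *Bcas1*, a gene of newly formed OLGs, fell by 0.32. *Enpp2*, which encodes the secreted phospholipase autotaxin, fell by 0.54 against day 0 and was also lower than at day 1 (-0.64, adjusted p = 0.00066).

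Most measured progenitor genes fell. Of 29 listed, 19 were measured, and 16 fell, 1 rose and 2 remained under the threshold, at a median of -1.17 (-1.35 without day 2 control 3). The median over the members, relative to their day 0 means, was -1.39, -1.34 and -0.79 on day 2 control 1, 2 and 3. *Pdgfra*, the PDGF-AA receptor, read 12.83, 12.54 and 12.70 at day 0 and 11.02, 10.98 and 11.70 at day 2. *Neu4*, a sialidase gene, fell by 1.69, *Pid1*, a phosphotyrosine domain gene, fell by 1.83, and *Cspg5*, the proteoglycan neuroglycan C, fell by 1.60. Day 2 control 3 was the nearest to day 0 in this median. The member that rose was *Nes* (nestin), the intermediate filament of neural progenitors, from 7.68, 8.20 and 8.34 to 9.20, 9.02 and 9.45, a rise of 1.15 (1.04 without day 2 control 3).

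Among lineage transcription factors, 6 of 21 rose and 10 fell (7 and 12 without day 2 control 3). *Nfe2l3*, a CNC-type factor gene, rose by 1.93 and *St18*, a zinc finger gene related to Myt1, by 1.21. *Dlx1*, a homeobox gene of interneurons and their precursors, fell by 1.80, *Nfib* by 1.00, and *Sox10*, the factor OLGs keep through life, by 0.24 (limma adjusted p = 0.019). *Sox10* did not pass in 4 of the fits with 1 array left out. *Tcf7l2* read 8.24, 7.78 and 8.13 at day 0, 8.98, 8.60 and 8.78 at day 1 and 8.12, 8.17 and 7.91 at day 2: it was higher at day 1 than at day 0 by 0.73 (adjusted p = 0.023) and lower at day 2 than at day 1 (-0.72, adjusted p = 0.035), which did not pass without day 2 control 3 (-0.64, adjusted p = 0.08). Of 14 genes listed as repressors of differentiation 8 fell and none rose, where 20.2% of all named genes fell. Without day 2 control 3, 7 fell, and 5 fell without day 2 control 1 or without day 0 array 2. *Hes6*, a Hes family gene whose role as a repressor was not tested here, fell by 1.12 and *Sox6* by 0.93, while *Id1* (0.09) and *Id2* (-0.04) did not pass (adjusted p = 0.46 and 0.84).

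**Figure D4:**
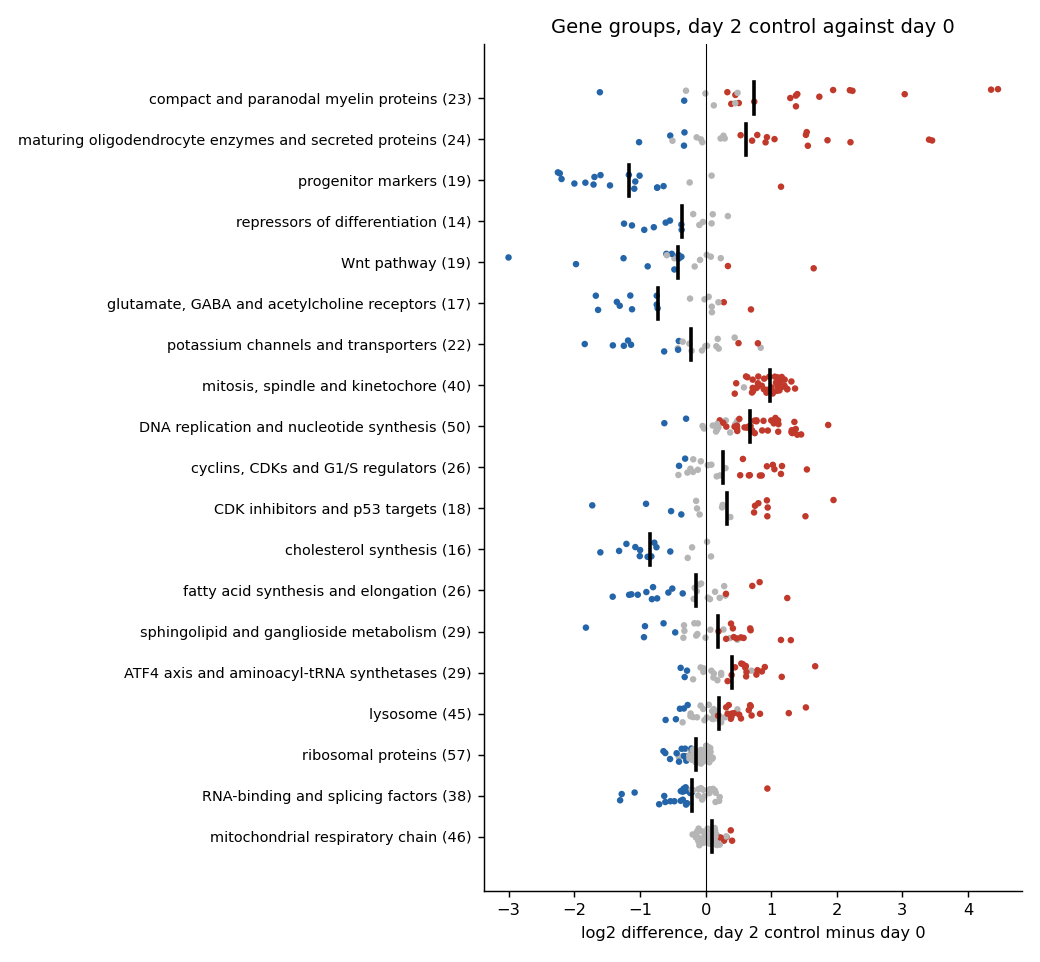
Log2 difference between day 2 control and day 0 (x axis) for each measured gene of 19 groups, with the number measured in brackets. Red genes rose, blue genes fell and grey genes did not pass the limma test; the black bar is the group's median, furthest to the right for mitosis genes and furthest to the left for progenitor markers.

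Genes of cell division were higher after 2 days without mitogens than at day 0. Of 62 listed genes of mitosis, spindle and kinetochore, 40 were measured, of which 39 rose and none fell, at a median log2 difference of 0.98, where 21.6% of all named genes rose. *Tpx2*, which targets Aurora A to the spindle, read 7.69, 8.54 and 8.88 at day 0 and 9.79, 9.70 and 9.72 at day 2 (a difference of 1.36, standard error 0.21, adjusted p = 9.5e-05). *Plk1*, the kinase that drives entry into mitosis, read 6.03, 7.14 and 7.37 and 8.08, 8.01 and 8.07. For both genes the groups did not overlap, and day 0 array 1 was the lowest.

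The kinase gene *Aurkb*, of the chromosomal passenger complex, rose by 1.09, the checkpoint kinase gene *Bub1b* by 1.20, and *Cdc20*, the activator of the anaphase-promoting complex, by 0.94. The mitotic kinesins *Kif22*, *Kif23* and *Kif11* rose by 1.24, 1.31 and 1.00; a dim second probe of *Kif11* did not pass (0.18, adjusted p = 0.40). The kinetochore gene *Cenpf*, named after its value was seen, was the member that did not pass (0.58, adjusted p = 0.069). Without day 2 control 3, 38 rose and the median was 1.00.

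The spread at day 0 was wide for these genes. Relative to their day 0 means, the median over the 40 members was -0.54, 0.27 and 0.30 on day 0 arrays 1, 2 and 3, -0.23, -0.30 and -0.13 on the day 1 control arrays and 0.94, 1.06 and 0.88 on the day 2 control arrays. Day 0 array 1 was thus low, and without it 36 rose with a median of 0.70. All 3 day 2 arrays lay above all day 0 and day 1 arrays in this median. At day 1, 1 member had risen and 5 had fallen against day 0, where 13.8% of all probes rose and 13.3% fell. Tested directly, 37 members were higher at day 2 than at day 1 and none was lower, where 8.42% of all probes were higher and 8.97% lower. With the deposited, unscaled intensities 10 rose and none fell, and the median was 0.69 relative to all probes.

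**Figure D5:**
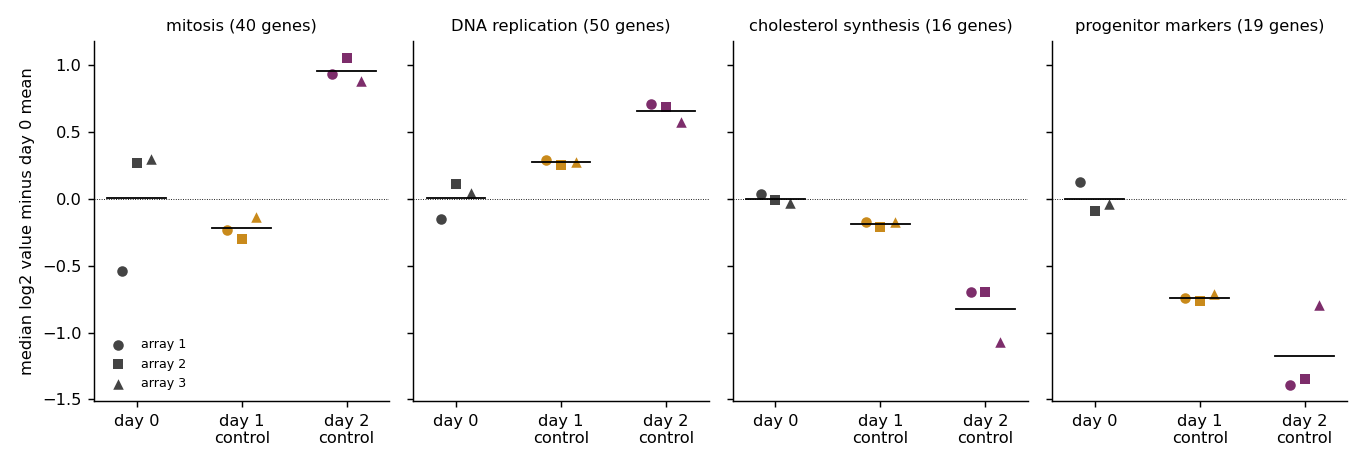
Median, over the measured members of 4 gene groups, of the log2 level minus the member's day 0 mean (y axis) on each day 0, day 1 control and day 2 control array (x axis; symbols give the array number, bars the mean of 3 arrays). Mitosis genes stood at 0.94, 1.06 and 0.88 on the day 2 arrays, and cholesterol synthesis genes at -0.69, -0.69 and -1.07.

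Many mitotic genes of mammals carry a cell cycle homology region (CHR) next to the transcription start, often with a CCAAT box upstream of it. Promoter windows were matched for 33 of the 40 mitosis genes. The CHR letters TTTGAA were found on either strand in 25 of them (75.8%), against 18.1% of all windows, and CCAAT in 22 (66.7%), against 37.7%. The motifs share no overlap in the windows below. Shown are 4 genes that rose and hold both, with the CHR and CCAAT letters of either strand in capitals (GRCr8, RefSeq).
Cdc20 (chr5:137255750-137256049, minus strand): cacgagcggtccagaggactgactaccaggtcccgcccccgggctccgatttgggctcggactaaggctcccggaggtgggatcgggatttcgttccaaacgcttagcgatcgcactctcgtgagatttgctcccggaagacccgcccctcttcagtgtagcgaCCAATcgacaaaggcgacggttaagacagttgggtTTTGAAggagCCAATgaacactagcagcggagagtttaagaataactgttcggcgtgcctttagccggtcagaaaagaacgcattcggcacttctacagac
Plk1 (chr1:186147408-186147707, plus strand): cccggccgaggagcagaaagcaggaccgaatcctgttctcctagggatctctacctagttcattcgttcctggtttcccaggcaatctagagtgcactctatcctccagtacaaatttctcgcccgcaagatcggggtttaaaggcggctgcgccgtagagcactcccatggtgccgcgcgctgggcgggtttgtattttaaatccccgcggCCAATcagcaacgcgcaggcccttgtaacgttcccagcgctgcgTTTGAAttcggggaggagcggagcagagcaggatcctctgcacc
Kif22 (chr1:191080829-191081128, minus strand): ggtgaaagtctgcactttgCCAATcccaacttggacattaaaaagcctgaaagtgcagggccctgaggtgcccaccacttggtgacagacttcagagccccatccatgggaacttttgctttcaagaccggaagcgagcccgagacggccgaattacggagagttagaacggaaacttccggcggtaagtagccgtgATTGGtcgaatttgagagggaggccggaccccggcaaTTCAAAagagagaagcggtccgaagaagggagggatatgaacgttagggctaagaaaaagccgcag
Kif23 (chr8:71320535-71320834, minus strand): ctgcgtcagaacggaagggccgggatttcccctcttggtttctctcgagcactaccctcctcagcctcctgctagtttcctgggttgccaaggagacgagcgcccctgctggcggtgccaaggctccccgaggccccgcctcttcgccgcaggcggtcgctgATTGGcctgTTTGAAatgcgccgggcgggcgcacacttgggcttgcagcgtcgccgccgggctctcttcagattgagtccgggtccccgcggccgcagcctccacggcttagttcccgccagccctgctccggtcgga

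Of 50 measured genes of replication and nucleotide synthesis, 37 rose, 2 fell and 11 remained under the threshold, at a median of 0.67. Without day 2 control 3, 38 rose and 2 fell, and the median was 0.66. At day 1 21 had risen and 3 had fallen against day 0, where 13.8% of all probes rose and 13.3% fell. At day 2 26 were higher and 1 lower than at day 1, where 8.42% of all probes were higher and 8.97% lower. *Mcm3*, a subunit of the replicative helicase, was detected on 2 of 3 day 0 arrays at 5.36, 5.82 and 5.64 and read 7.57, 7.50 and 7.35 at day 2. The helicase subunit genes *Mcm2* and *Mcm6* rose by 0.86 and 1.31, the flap endonuclease gene *Fen1* by 1.46, the polymerase epsilon gene *Pole* by 1.40, and *Pcna*, the polymerase clamp, by 0.48. *Ppat*, which starts purine synthesis, and *Rpa3*, a subunit of the single-strand binding protein, fell by 0.63 and 0.30.

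The E2F letters TTTCCCGC were found on either strand in 10 of 43 matched replication windows (23.3%), against 1.03% of all windows, and TTTGGCGC in 9 (20.9%), against 0.521%. The windows of *Mcm3* and *Pole*, which rose, are shown with either form in capitals (GRCr8, RefSeq).
Mcm3 (chr9:30733697-30733996, minus strand): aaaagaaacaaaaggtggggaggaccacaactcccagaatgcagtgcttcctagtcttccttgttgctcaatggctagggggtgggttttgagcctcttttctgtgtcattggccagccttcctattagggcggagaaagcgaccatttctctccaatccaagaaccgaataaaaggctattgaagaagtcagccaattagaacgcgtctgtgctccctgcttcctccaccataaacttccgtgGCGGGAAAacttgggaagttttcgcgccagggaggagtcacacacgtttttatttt
Pole (chr12:52053613-52053912, minus strand): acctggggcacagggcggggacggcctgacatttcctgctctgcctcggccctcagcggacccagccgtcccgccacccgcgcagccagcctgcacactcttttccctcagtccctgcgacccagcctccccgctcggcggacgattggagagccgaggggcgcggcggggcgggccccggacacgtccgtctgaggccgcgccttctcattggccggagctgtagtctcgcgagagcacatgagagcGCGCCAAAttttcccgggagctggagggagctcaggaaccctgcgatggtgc

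Regulators of the cell cycle were mixed. Of 26 cyclins, cyclin-dependent kinases (CDKs) and G1/S regulators, 12 rose and 2 fell. *Ccnf* (cyclin F) rose by 1.54, *Ccna2* (cyclin A2) by 1.16, *Cdk1* by 1.05, and *Foxm1*, a transcription factor of the G2 and M phases, by 0.83. *E2f1*, which drives entry into S phase, was detected on 1 of 3 day 0 arrays at 5.37, 5.45 and 5.54 and read 6.53, 6.57 and 6.72 at day 2. *Ccnd1*, the mitogen-responsive cyclin D1, had a difference of 0.30 (adjusted p = 0.35) and did not pass. Without day 2 control 3, 11 rose and 5 fell.

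CDK inhibitors and p53 targets moved both ways, with 8 of 18 rising and 4 falling (2 falling without day 2 control 1). *Gadd45b* and *Gadd45a*, stress genes that restrain the cell cycle, rose by 1.95 and 1.52. *Cdkn1c* (p57) read 9.34, 9.41 and 9.30 at day 0 and 7.73, 7.53 and 7.62 at day 2, a fall of 1.73 (limma adjusted p = 2.4e-06). *Cdkn1a* (p21) was not well above background at day 0 and was at least 1.34-fold higher at day 2. *Cdkn1b* (p27), the inhibitor best known in OLP arrest, had a difference of -0.14 (adjusted p = 0.35) and did not pass.

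Most measured genes of cholesterol synthesis fell. Of 22 listed enzymes 16 were measured, of which 12 fell and none rose, at a median log2 difference of -0.84, where 20.2% of all named genes fell. *Mvd*, which makes the isoprene unit, read 12.65, 12.78 and 12.66 at day 0 and 11.15, 11.08 and 11.05 at day 2, a fall of 1.60 (standard error 0.10, limma adjusted p = 2.9e-08). *Fdps*, which makes farnesyl pyrophosphate, went from 13.29, 13.24 and 13.24 to 11.99, 12.10 and 11.72. *Dhcr7*, the last enzyme of the pathway, fell by 1.21. The groups did not overlap for these 3 genes.

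Day 2 control 3 had the lowest median of these enzymes, with -0.69, -0.69 and -1.07 on day 2 control 1, 2 and 3, so the fall was smaller without it: 9 fell, and the median was -0.70. *Cyp51* (-0.45, adjusted p = 0.17, range over the alternatives 0.0018 to 0.17), *Idi1* (-0.47, adjusted p = 0.058, range 0.00046 to 0.058) and *Pmvk*, enzymes of the pathway, no longer passed. *Pmvk* was named after its values were seen. At day 1, 2 of the enzymes had fallen and 1 had risen against day 0, with a median of -0.17, where 13.3% of all probes fell and 13.8% rose. Between day 1 and day 2, 9 fell and none rose, where 8.97% of all probes fell and 8.42% rose.

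The letters TCACNCCAC, a written form of the sterol regulatory element, were on neither strand of 13 matched windows, against 1.13% of all windows. At so low a share, 13 windows are too few to show whether these genes lack the letters. *Srebf2*, the sterol-sensing transcription factor of this pathway, fell by 0.56, and *Stard4*, a sterol carrier, by 1.16. *Srebf1*, which governs fatty acid genes, was higher at day 1 (0.91, adjusted p = 7.7e-07) and lower at day 2 than at day 1 (-0.77, adjusted p = 1.1e-05), with a difference from day 0 of 0.14 that did not pass. *Soat1*, which esterifies cholesterol for storage, rose by 1.11, and *Npc1*, which exports it from lysosomes, by 0.66.

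Fatty acid genes followed the sterol genes in part. Of 26 measured, 11 fell and 4 rose. Between day 1 and day 2 11 fell and 1 rose, where 8.97% of all probes fell and 8.42% rose. *Acly*, *Acss2* and *Acaca*, which make and carboxylate cytosolic acetyl-CoA, fell by 1.17, 0.90 and 1.03. The desaturase gene *Scd* rose to day 1 (0.38, adjusted p = 0.0016) and ended 1.13 below day 0, with 13.25, 13.12 and 13.18 at day 0, 13.63, 13.48 and 13.60 at day 1 and 12.07, 12.03 and 12.07 at day 2. *Acsbg1*, an acyl-CoA synthetase of brain, rose by 1.24.

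Of 29 measured sphingolipid genes 12 rose and 5 fell (13 and 7 without day 2 control 3, and 3 falling without day 0 array 1). *Cers2*, which makes the very long chain ceramides of myelin, rose by 1.15, *Degs1*, the ceramide desaturase, by 0.69, and the sphingosine kinase gene *Sphk1* by 1.30. *B4galnt1*, which makes complex gangliosides, fell by 0.92, and *Smpd3*, a neutral sphingomyelinase, by 1.82. *St8sia1*, which makes the gangliosides of progenitors, was detected on every day 0 array and on no day 2 array (at least 1.3-fold lower). *Ugt8*, which makes galactosylceramide, had a difference of 0.27 (adjusted p = 0.089) and passed without day 2 control 3 (0.37, adjusted p = 0.031, range over the alternatives 0.0021 to 0.65).

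*Fgfr2*, the fibroblast growth factor receptor of mature OLGs, was detected on 2 of 3 day 0 arrays at 5.56, 5.76 and 5.84 and read 8.63, 8.49 and 8.01 at day 2. *Ngfr*, the p75 neurotrophin receptor, rose from 7.33, 7.19 and 7.45 to 10.11, 10.07 and 9.58, and *Tyro3*, a receptor for Gas6, by 2.34. *Ntrk3* and *Ntrk2*, the TrkC and TrkB neurotrophin receptors, fell by 1.45 and 1.10. The groups did not overlap for these 5 genes. Of 19 receptors measured 6 rose and 4 fell, and among 22 growth factors and binding proteins 3 rose and 6 fell (4 and 6 without day 2 control 3), against 21.6% and 20.2% of all named genes. *Vegfc* and *Hbegf* rose by 1.55 and 1.51, and *Igf2* and *Ptn* (pleiotrophin) fell by 1.67 and 1.05.

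Of 25 targets and feedback inhibitors of ERK, the kinase downstream of these receptors, 6 rose and 9 fell (6 and 10 without day 2 control 3). *Dusp6* and *Spry1*, feedback inhibitors, fell by 0.89 and 0.68. *Jun*, *Dusp1* and *Atf3*, immediate early genes, rose by 0.91, 0.87 and 1.24, and *Dusp1* did not pass without day 2 control 1, day 2 control 2, day 0 array 1 or day 0 array 2. *Fos* and *Egr1* had differences of 0.31 and 0.11 and did not pass (adjusted p = 0.31 and 0.84), and *Fos* passed without day 2 control 3 (0.65, adjusted p = 0.013, range over the alternatives 0.0025 to 0.83). *Dusp10*, a phosphatase that acts on p38 and JNK, read 5.61, 6.04 and 6.08 at day 0 and 8.78, 8.70 and 8.07 at day 2, a rise of 2.60.

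In the Wnt pathway 10 of 19 measured genes fell and 2 rose, with a median of -0.41. Without day 2 control 3, 12 fell with a median of -0.52, and without day 0 array 1, 6 fell. The rises numbered 1 without day 2 control 1 and none without day 2 control 2 or without day 0 array 1. The ligand genes *Wnt7b* and *Wnt5a* fell, the former by 1.97, and *Axin2*, a target of β-catenin, was detected on every day 0 array and no day 2 array (at least 1.1-fold lower). *Wnt4* was not well above background at day 0 and was detected on 2 of 3 day 2 arrays (at least 2.29-fold higher). Of 16 measured genes of the Notch pathway 4 rose and 7 fell (4 and 6 without day 2 control 3). *Notch1* fell by 1.26 and *Numbl* by 0.84, and the 4 rises were in genes of the enzymes that cut the receptor, *Psen2* by 1.93, *Adam17* by 1.11, *Aph1a* by 0.58 and *Ncstn* by 0.49. Others of these enzyme genes, *Adam10* (-0.04, adjusted p = 0.9) and *Psenen* (0.01, adjusted p = 0.91), did not pass; they were named after their values were seen. Among genes of BMP and TGF-β signalling, *Tgfb2* rose by 1.36 and the inhibitor *Smad7* by 1.33, and *Bmpr2* fell by 0.65.

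More neurotransmitter receptor genes fell than rose. Of 46 listed glutamate, GABA, glycine and acetylcholine receptor genes 17 were measured, of which 9 fell and 2 rose (10 and 2 without day 2 control 3), with a median of -0.73 (-0.88 without day 2 control 3 and -0.45 without day 0 array 1). *Gria3*, an AMPA receptor subunit, read 10.13, 9.89 and 10.03 at day 0 and 8.20, 8.21 and 8.72 at day 2, and *Grin1*, the common NMDA receptor subunit, 7.95, 7.70 and 7.97 and 5.81, 6.28 and 6.51. *Gria2*, *Chrm3* and *Gabra5*, subunits or receptors for glutamate, acetylcholine and GABA, fell by 1.35, 1.31 and 1.12. *Gabrg1* and *Grik2* rose by 0.69 and 0.28, but without day 2 control 1, day 2 control 2 or day 0 array 2 neither passed, and *Grik2* read -0.105 with the deposited, unscaled intensities.

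Potassium channel genes showed 8 falls and 2 rises among 22 measured (8 and 3 without day 2 control 3), and the rises ranged from 1 to 4 with 1 array left out. The A-type channel genes *Kcnd2* and *Kcnd3* fell, the former by 1.41, and the partner *Kcnip3* fell by 1.84. *Kcnip1* was detected at day 0 and on no day 2 array (at least 1.3-fold lower). *Kcnj10*, the inward rectifier of glia, had a difference of -0.25 and did not pass (adjusted p = 0.55). Among other G protein-coupled receptors, *Adora1*, an adenosine receptor, *Cxcr4*, the receptor for the chemokine that guides OLPs, and *F2r*, the thrombin receptor, fell by 1.45, 0.87 and 1.30. *S1pr5*, the sphingosine phosphate receptor of OLGs, and *Gprc5b* rose by 1.50 and 1.36.

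Neuropeptide and granin genes split, with 6 rising and 6 falling of 16 (7 and 6 without day 2 control 3). *Trh*, the precursor of thyrotropin-releasing hormone, read 7.97, 8.52 and 8.53 at day 0 and 11.71, 11.72 and 9.70 at day 2. *Gal* (galanin), *Npy* and *Penk* rose by 1.57, 1.39 and 1.01, and *Vgf*, not well above background at day 0, was at least 2.47-fold higher. The granin genes *Scg3* and *Chgb* fell by 1.06 and 0.93.

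Cell shape and adhesion genes changed in both directions. *Myo1d*, a class I myosin, read 6.44, 6.64 and 6.73 at day 0 and 9.62, 9.54 and 8.58 at day 2, *Gsn* (gelsolin), which severs actin filaments, rose by 1.53, and *Arpc1b*, a subunit of the Arp2/3 complex, by 1.35. *Fyn*, the kinase of process outgrowth, fell by 0.36 (adjusted p = 0.028) and did not pass without day 2 control 3 (-0.26, adjusted p = 0.11, range over the alternatives 0.002 to 0.11). Of 39 tubulin and microtubule-associated genes 11 rose and 9 fell, close to the shares over all named genes (21.6% and 20.2%); 10 rose without day 2 control 3 and 7 without day 2 control 1. *Tuba4a* and *Stmn4*, a member of the stathmin family, rose by 1.37 and 1.65. *Tubb2b*, *Stmn3* and *Stmn2*, and the growth cone gene *Dpysl3*, fell by 1.03, 1.65, 1.49 and 1.53.

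Of 32 guidance genes 6 rose and 9 fell (8 and 10 without day 2 control 3), near the shares over all named genes (21.6% and 20.2%). *Unc5b*, a netrin receptor, rose from 5.64, 5.80 and 6.01 to 8.30, 8.29 and 7.80, and *Plxnd1*, a semaphorin receptor, by 1.75. *Ntn1* (netrin 1) and *Efnb3* (ephrin B3) fell by 1.40 and 1.10. Among adhesion molecules 10 of 36 rose and 14 fell (11 and 15 without day 2 control 3): *Mcam* (CD146) rose by 2.19 and *Jam3*, of glial junctions, by 1.29, and *Nrxn2* (neurexin 2) and *Ncam1* fell by 1.79 and 0.79. In the matrix *Fn1* (fibronectin), *Lamb2* (laminin β2) and *Adamts4*, a protease that cuts chondroitin sulfate proteoglycans, rose by 1.28, 1.29 and 2.13. *Vcan* (versican), a substrate of that kind, fell by 1.17.

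Of 29 genes of the ATF4 axis and aminoacyl-tRNA synthetases 15 rose and 3 fell (14 and 3 without day 2 control 3, and 1 falling without day 2 control 1), with a median of 0.40. *Ddit3* (CHOP), a factor induced by ATF4, read 9.11, 9.19 and 9.14 at day 0 and 10.56, 10.62 and 11.27 at day 2, *Atf5* rose by 1.16, and the alanyl-tRNA synthetase gene *Aars1* by 0.86. *Asns*, asparagine synthetase, rose by 0.79 (adjusted p = 0.038) and had 0.40 without day 2 control 3 (adjusted p = 0.19, range over the alternatives 0.019 to 0.41). *Hmox1* (heme oxygenase) and *Nqo1*, targets of the oxidative stress factor NRF2, rose by 1.53 and 1.42, and *Ftl1*, a ferritin chain, by 0.86. *Hspa5*, the chaperone of the endoplasmic reticulum, had a difference of 0.02 and did not pass (adjusted p = 0.88).

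Of 45 lysosomal genes 18 rose and 5 fell, against 21.6% and 20.2% of all named genes, and the falls numbered 1 without day 2 control 1, 3 without day 0 array 1 and 2 without day 2 control 2, day 0 array 2 or day 0 array 3. *Scarb2* and *Lamp1*, membrane proteins of the organelle, rose by 1.53 and 0.83, and the protease gene *Ctsl* by 1.27. Of 57 ribosomal protein genes none rose and 15 fell (13 without day 2 control 3), with a median of -0.14, and near-identical copies of these genes may share probes. The nucleolar genes *Npm1* and *Ncl* fell by 0.49 and 0.50. Of 38 RNA-binding and splicing factors 19 fell and 1 rose (17 and 3 without day 2 control 3), among them *Celf2* and *Hnrnpa1*, which fell by 1.28 and 0.61, and *Elavl3*, which rose by 0.94. Of 46 subunits of the respiratory chain 6 rose and none fell (4 rose without day 2 control 3), with a median of 0.09.

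In energy metabolism *Gpd1*, which feeds glycerol phosphate into lipid synthesis, and *Eno2*, an enolase, rose by 1.46 and 1.28, and *Aldoc* and *Ldhb* fell by 1.38 and 0.88. *Slc16a1*, the lactate transporter MCT1, and *Slc6a8*, the creatine transporter, rose by 0.98 and 1.05. Of 23 retinoid and nuclear receptor genes 6 rose and 7 fell (8 and 7 without day 2 control 3). *Aldh1a1*, which makes retinoic acid, rose by 1.97, *Cyp26b1*, which degrades it, by 1.91, and the binding protein gene *Crabp2* by 1.14, while the orphan receptor gene *Nr2f1* fell by 1.48. *Hdac2*, a histone deacetylase gene, fell by 0.75, and *Hmgb2*, a chromatin protein gene of dividing cells, rose by 1.02.

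Marker genes of other cells were followed because the cultures are primary. Of 15 astrocyte markers 2 rose and 4 fell (2 and 6 without day 2 control 3), and the summed linear level of the 16 genes on the array was 102954 to 107010 at day 0 and 56913 to 85144 at day 2, highest on day 2 control 3. The brightest genes weigh most in this sum, among them *Aldoc* (mean 14.40 at day 0 and 13.01 at day 2). The median log2 difference of the measured members was -0.10 (-0.31 without day 2 control 3). The mean was higher at day 2 for 5 members, among them *Agt*, *Slc1a2* and *Gja1*, and lower for 10. *Gfap* read 14.02, 13.99 and 14.03 at day 0 and 13.51, 13.37 and 13.88 at day 2, and *Aqp4* was detected on every array, with a difference of 0.41 (adjusted p = 0.068). *Fabp7*, a member of this list that OLPs also express, fell by 0.74, and the sum was not taken without it.

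Of 16 microglia markers 4 fell and 1 rose, where 20.2% of all named genes fell. Without day 2 control 3, 6 fell and none rose, and without day 0 array 2, 2 fell and none rose. The member that rose was *Lcp1*, an actin-bundling protein gene of leukocytes (0.52, and 0.46 without day 2 control 3, adjusted p = 0.055, range over the alternatives 0.0062 to 0.51). The list had a summed level over 20 genes of 32497 to 41382 at day 0 and 26356 to 36552 at day 2. The microglial gene *Cx3cr1*, named after its values were seen, was detected on 1 day 0 array and no day 2 array, while *Aif1* was detected on every array with a difference of 0.09. *Fcgr2b*, an Fc receptor gene, was detected at day 0 and on no day 2 array (at least 1.84-fold lower).

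Of 20 neuron markers 11 fell and 4 rose (10 and 4 without day 2 control 3), with a summed level over 25 genes of 32413 to 32512 at day 0 and 26616 to 28720 at day 2. The brightest genes weigh most in this sum. Among them *Gap43* had a mean of 13.58 at day 0 and 12.29 at day 2, and the sum was not taken without it. Other bright members were higher at day 2, *Eno2* (11.71 and 12.99) and *Reln* (12.28 and 12.83). *Ina*, *Gap43* and *Syp*, an intermediate filament, a growth cone and a synaptic vesicle gene, fell by 2.23, 1.29 and 1.09. *Tubb3* had a difference of -0.02, which was positive without day 2 control 3. *Eno2*, *Elavl3* and *Reln* (reelin), which are also in this list, rose by 1.28, 0.94 and 0.55. The median of this list, relative to day 0, was -0.634, -0.541 and -0.775 on day 2 control 1, 2 and 3. That of the neurotransmitter receptor genes was -0.623, -0.972 and -0.319, and that of the potassium channel genes -0.238, -0.349 and -0.115. The medians of all 3 lists were thus lower at day 2, but their order over the arrays differed. *Stmn2* is a member of the neuron list. The part of neurons in the falls of the receptor, channel and stathmin genes above was not tested.

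Of 10 measured fibroblast, endothelial and pericyte markers 5 rose and 1 fell. Their summed level over 17 genes was 6967 to 7929 at day 0 and 11101, 10524 and 19947 on day 2 control 1, 2 and 3. This list holds *Ptgds*, which OLGs also express, and without it the sum was 6259 to 7137 at day 0 and 4955 to 5906 at day 2. It also holds *Cspg4*, a gene of OLPs, and without both it was 2737 to 2871 at day 0 and 4353 to 4884 at day 2, with day 2 control 3 the lowest of its group. *Tagln*, a gene of smooth muscle and fibroblasts, rose by 1.92 and *Col1a2*, a collagen I chain, by 1.30. Endothelial genes of the list differed in detection. *Cdh5*, *Flt1* and *Tek* were detected on none of the 6 arrays, while *Cldn5* and *Vwf* were detected on all 6. *Esam* was detected on 2 day 0 arrays and 3 day 2 arrays. These genes were named after their values were seen. The part of such cells in the rises of *Ptgds* and of the matrix genes was not tested.

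Schwann cell and ependymal markers, 9 of them on the array, summed to 5505 to 5633 at day 0 and 4716 to 5599 at day 2. Of 6 measured, 4 rose and 1 fell, with a median of 0.46 (2 rose and 1 fell without day 2 control 3). *Cfap52* was the member that fell, and *Ngfr* and *Ttr* were among those that rose. The ependymal gene *Tmem212*, named after its values were seen, was detected on none of the 6 arrays. The part of such cells in the fall of *Cfap52* was not tested.

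A last comparison asked which calls rest on day 2 control 3. *Ramp1*, a co-receptor of the calcitonin gene-related peptide receptor, read 9.72, 10.22 and 9.90 at day 0 and 8.29, 8.16 and 10.09 at day 2. It had a difference of -1.10 (adjusted p = 0.095), which was -1.72 without day 2 control 3 (adjusted p = 0.007, range over the alternatives 9.8e-05 to 0.31). Likewise *Adora2a*, an adenosine receptor, *Gng7*, a G protein subunit, and *Adcy2*, an adenylyl cyclase, had differences of -0.65, -0.78 and -0.53 that did not pass with all arrays and fell by 1.06, 1.13 and 1.01 without it. *Scg2*, a granin gene, was higher without it (1.26 against 0.75).

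In the other direction, *Dlk1*, a Notch ligand homologue of progenitors, read 9.38, 10.67 and 10.79 at day 0 and 9.36, 9.32 and 8.43 at day 2. Its fall of 1.24 (adjusted p = 0.013) was 0.94 without day 2 control 3 (adjusted p = 0.059, range over the alternatives 0.0014 to 0.098). *Hspb1*, a small heat shock protein gene, fell by 0.73 with and had a difference of -0.49 without it. *Ttr* (transthyretin), a gene of the choroid plexus, and *Slc27a1*, a fatty acid transporter, had differences of 0.92 and 0.82 with and 0.88 and 0.55 without it, and passed only with it.

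The day 1 control arrays were set beside those of day 2 for 5 genes. *Cfap52* read 8.31, 8.20 and 8.35 on the day 1 control arrays and was lower at day 2 (a difference of -1.77, adjusted p = 0.00066). *Mal* read 8.49, 8.26 and 8.54 at day 1 and rose by 1.66 from there (adjusted p = 0.00011), and *Aspa* by 1.11 (adjusted p = 0.0014). *Mbp* read 12.41, 12.58 and 12.39 at day 1 against 13.62, 13.58 and 12.89 at day 2, a difference of 0.90 that did not pass (adjusted p = 0.051) and did without day 2 control 3 (1.14, adjusted p = 0.019). *Cspg4*, the NG2 proteoglycan of OLPs, had -1.10 between the days (adjusted p = 0.052) and -1.55 without day 2 control 3 (adjusted p = 0.0043). Against day 0, both *Mbp* and *Cspg4* differed at day 2 in each alternative, with limma adjusted p of at most 0.00113 and 0.00445. The mean of *Cspg4* was 11.89 at day 0 and 9.7 at day 2. Over all probes 1839 differed between day 2 control and day 1 control (17.4%), and 2861 between day 1 control and day 0 (27.1%). These comparisons share arrays, so their sizes are given side by side only.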

How the data were processed

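RNA of 18 samples in 6 groups of 3 was measured on Illumina RatRef-12 arrays, 1 array per sample. The authors deposited mean bead intensities that were neither background-corrected nor normalized, and gave every probe a detection p-value against the negative control beads on its array (software version not given in the sources used here); a second deposited table held the same values (405414 of 405414 equal). Intensities were background-corrected and quantile-normalized with neqc (offset 16) in limma 3.58.1 (R 4.3.3), and log2 values of the 10574 probes that 1 or more groups detected on each of their 3 arrays (p under 0.01) were fitted as group means over all 18 arrays with lmFit and eBayes (12 residual and 3.16 prior degrees of freedom). Adjusted p is by Benjamini-Hochberg over these probes, and a probe rose or fell at an adjusted p under 0.05. The limma step was tested on simulated data. The number of arrays limits the precision.

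Of 22523 probes, 13793 had a gene symbol in the platform annotation and 8730 had none and are unnamed here. A gene was represented by the probe of the study's own accession or otherwise by its brightest probe. The genes named were taken, not exhaustively, from the 12 largest changes in each direction with no overlap between the groups, core members, largest changes and counter-running members of the gene lists, and the largest changes in which calls differ without day 2 control 3. The gene lists and the comparison were chosen with earlier results of these data known. Where a probe was not detected on any array of a group, a lower bound replaces the fold change, computed against the higher of the probe's own level and the lowest detected signal of each array. Summed marker levels add the normalized linear intensities of the probes. Tables and figures were made with pandas 2.3.3 and matplotlib 3.10.9 in Python 3.11.15. The alternatives covered normalization, background correction, offset, filter, arrays in the fit, array weights, a replicate block, thresholds and each array left out. A fit of the compared arrays alone without day 2 control 3, and the summed marker levels without *Ptgds* and *Cspg4*, were added after the data were seen. The inhibitor arrays entered the fit, and beyond the correlations between arrays their values are not reported.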

Additional observations from a re-analysis of the deposited data

How the results depend on the processing

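The count of probes that differed (4461) lay between 3420 and 4767 with 1 array left out in turn. It was 4697 with the deposited intensities, 5797 with array weights, 3908 and 4211 with only the 6 arrays compared (the latter at the unadjusted threshold of the study's methods), and 5105 with these arrays without day 2 control 3, a setting chosen after seeing the data. With the deposited intensities 462 probes were higher and 4235 lower. At an adjusted p under 0.01 there were 2992, of which 1519 were lower, and with a change of at least 2-fold 912, of which 452 were higher and 460 lower. The replicate block, with the replicate number in the fit, gave 4478 and changed no call among the named genes. Samples of the same number did not deviate together (correlations of -0.111, 0.098 and -0.015), so the numbers were not taken as a pairing. The slide could not be fitted as a block because no column or label names it.

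*Cnp* (-0.003) and *Grik2* (-0.105) changed sign with the deposited intensities, where the median over all probes was -0.28, and the cause was not tested. *Tubb3* read 0.38 with the compared arrays alone without day 2 control 3. Its difference is between the means of the compared arrays, so leaving out day 2 control 3 gives the same value in the fit of all groups. Of the named genes 226 were tested. Without day 2 control 3, 9 of them lost and 7 gained a call, and no called gene changed sign. With each of the other 5 arrays left out in turn, 9 to 13 lost a call. At the array with the highest adjusted p, *Cnp* had 0.26 (adjusted p = 0.14), *Dusp1* 0.71 (0.095), *Omg* -0.26 (0.11), *Penk* 0.81 (0.067), *S1pr5* 1.21 (0.051) and *Sox10* -0.20 (0.082) without day 2 control 1, *Bcas1* -0.26 (0.058), *Gfap* -0.32 (0.068) and *Ttr* 0.59 (0.16) without day 2 control 2, *Srebf2* -0.54 (0.061) without day 0 array 1, *Asns* 0.65 (0.13), *Cyp51* -0.79 (0.084), *Fyn* -0.32 (0.087), *Grik2* 0.22 (0.12), *Hspb1* -0.58 (0.079), *Lcp1* 0.48 (0.059) and *Slc27a1* 0.73 (0.069) without day 0 array 2, and *Dlk1* -0.99 (0.068) and *Gabrg1* 0.57 (0.14) without day 0 array 3. *Wnt4*, given as a bound, lost its call without day 2 control 1 (0.08), and *Cdkn1a* and *St8sia1* without day 0 array 1 (0.064 and 0.06). The medians of the 57 gene lists changed most often with the deposited intensities, where 43 moved by more than the median standard error of their members. The groups of 3 arrays limit what can be called, and dim probes such as that of *E2f1* lie close to background.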
